A study of Arabidopsis thaliana with 28 samples.

Results

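COR15A (AT2G42540), COR15B (AT2G42530) and COR47 (AT1G20440) are 3 Arabidopsis genes named for their induction by cold. They were followed here in shoots and roots after a UV-B exposure. They were chosen by annotation: each gene was matched by 1 probe set of the ATH1 array, so the 3 genes stand for 3 of 22746 probe sets measured. COR15A and COR15B lie next to each other in the reference gene order, with 0 genes between them.

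The study exposed whole 16-day-old plants of the wild-type accession Col-0 to UV-B light for 15 min at 1.18 W/m2, 3 h after the start of a 16 h light period, at 24 °C and 50% humidity. Shoots and roots were collected separately at 0.25, 0.5, 1, 3, 6, 12 and 24 h, with 2 arrays for each tissue and time, 28 arrays in 14 groups. Every group was wild type and every group had been exposed. Unexposed plants were not analysed here, so each change is given relative to the 0.25 h group of the same tissue. Counted from the start of exposure, the 7 collections fell 3.25, 3.5, 4, 6, 9, 15 and 3 h into the light period, so at 0.5 to 12 h time after UV-B and hour of the day cannot be told apart. The 24 h and 0.25 h groups were collected at nearly the same hour on consecutive days. The origin of the paired arrays (separate cultures or one) is not given in the sources used here, and p-values cover only the spread between those arrays, which may be technical. In bulk tissue, fewer cells of a type and less RNA per cell cannot be told apart.

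Plants that meet low temperature switch on a set of protective genes through CBF/DREB1 transcription factors, which bind a short element in the promoters of COR genes. Drought and the hormone abscisic acid reach many of the same genes through other factors. COR15A and COR15B encode small hydrophilic proteins of the chloroplast stroma that protect membranes during freezing. COR47 encodes an acidic dehydrin, one of the late embryogenesis abundant (LEA) proteins that guard other proteins and membranes as cells lose water.

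Values are array signals on a linear scale. The mean of each array, with 2% of values trimmed at each end and control probe sets left out, was 99.2 to 99.4. Array medians were 36.7 to 39.0 in shoots and 44.3 to 47.4 in roots, and duplicate arrays correlated at 0.978 to 0.994. The tissue labels held on the measured markers: 4 shoot markers of photosynthesis (RCA, PSAN, LHCB4.1, LHCB4.2) summed to 12147 to 23723 in shoots and 251.5 to 509 in roots, and 3 root markers (PYK10, EXPA7, EXPA18) summed to 297 to 1488 in shoots and 3235 to 4015 in roots. Changes are differences of log2(signal + 9.58) with their standard error (SE), tested with limma over 14806 probe sets that passed a filter on low signals, and called at a Benjamini-Hochberg adjusted p under 0.05. The added constant makes them understate the change of dim probe sets within a tissue. A shoot change minus a root change can come out smaller or larger with it.

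**Figure D1:**
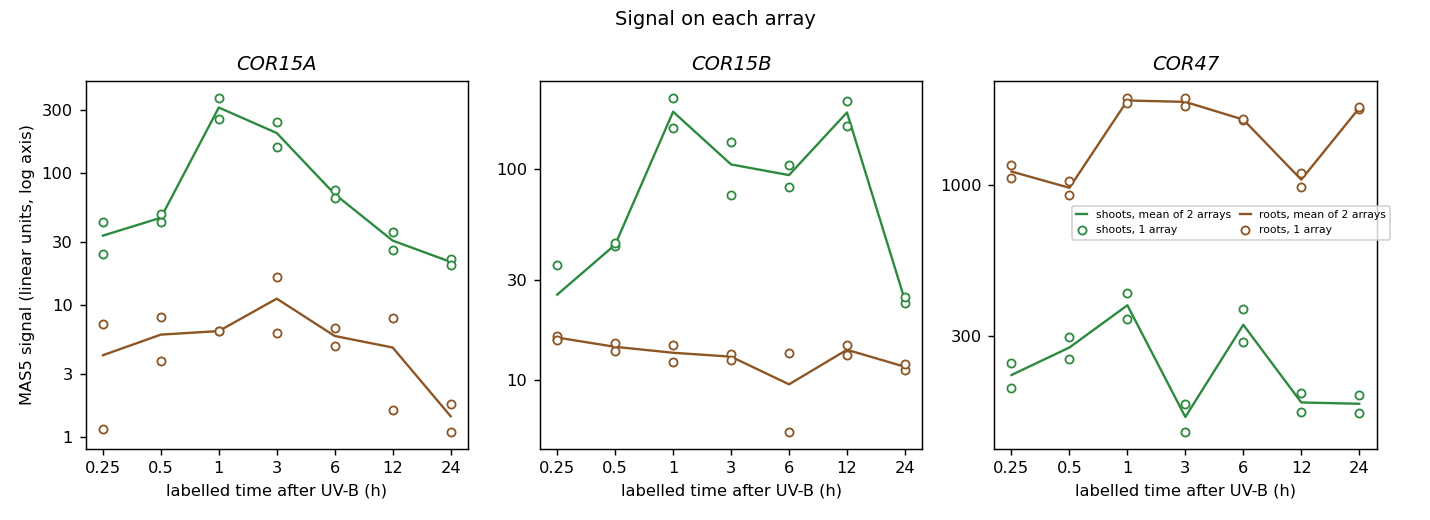
Signal (log axis, array units) of COR15A, COR15B and COR47 against hours after UV-B in shoots and roots; points are single arrays and lines join the means of 2 arrays. COR15A peaked at 1 h in shoots, COR15B was high at 1 h and again at 12 h, and COR47 was higher in roots than in shoots at all 7 times.

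COR15A rose about 9-fold in shoots by 1 h and was back near its starting signal by 12 h. Its shoot signals on the 2 arrays were 42.7 and 24.4 at 0.25 h, 42.4 and 49.3 at 0.5 h, 373 and 256 at 1 h, 244 and 159 at 3 h, 74.2 and 64.2 at 6 h, 35.5 and 26.0 at 12 h, and 22.4 and 20.0 at 24 h. Both arrays at 1, 3 and 6 h were above both arrays at 0.25 h, and those at 0.5 and 12 h overlapped the 0.25 h arrays. Both arrays at 24 h were below those at 0.25 h, although no change was called there. The share of all probe sets without such overlap was not computed. The mean was 314 ± 82.9 at 1 h and 33.5 ± 13.0 at 0.25 h (SD, n = 2 each), a ratio of 9.37. On the log2 scale the change was 2.92 ± 0.28 (SE) at 1 h (adjusted p = 8.86e-08, 95% interval 2.34 to 3.50), the change ranked 12 in size among the 14806 probe sets. It was 2.29 ± 0.28 at 3 h (adjusted p = 7.70e-07) and 0.90 ± 0.28 at 6 h (adjusted p = 0.00807). The 6 h call was lost without the second 0.25 h shoot array (adjusted p = 0.130) or the first 6 h array (adjusted p = 0.0562), and with no constant added to the signal (adjusted p = 0.197). At 12 h the difference was -0.07, with an interval of -0.66 to 0.51, and at 24 h it was -0.45 (adjusted p = 0.249).

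The steps between neighbouring times place the COR15A increase between 0.5 and 1 h, with a log2 change of 2.53 (adjusted p = 1.57e-06). The difference of 3 h from 1 h was -0.62 (adjusted p = 0.0747). COR15A then fell by 1.39 between 3 and 6 h (adjusted p = 5.05e-04) and by 0.97 between 6 and 12 h (adjusted p = 0.00618), steps whose adjusted p was 0.112 and 0.186 with no constant added. In order of mean shoot signal, 1 h stood above 3 h and 3 h above 6 h with no overlap between neighbours, whereas 0.5, 0.25 and 12 h overlapped in that order.

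COR15B rose in shoots on 2 occasions. Its shoot signals were 35.3 and 15.6 at 0.25 h, 43.1 and 44.7 at 0.5 h, 219 and 157 at 1 h, 135 and 75.9 at 3 h, 82.9 and 105 at 6 h, 212 and 161 at 12 h, and 23.2 and 24.7 at 24 h. All arrays at 0.5, 1, 3, 6 and 12 h were above both at 0.25 h, although the 0.5 h change was not called. The 24 h arrays lay between the 0.25 h pair. The mean was 188 ± 43.8 at 1 h and 186 ± 36.3 at 12 h, against 25.4 ± 13.9 at 0.25 h (SD, n = 2 each). The log2 change was 2.54 ± 0.25 at 1 h (adjusted p = 9.22e-08), 1.73 ± 0.25 at 3 h (adjusted p = 5.54e-06), 1.61 ± 0.25 at 6 h (adjusted p = 7.68e-06) and 2.53 ± 0.25 at 12 h (adjusted p = 2.92e-08).

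Between neighbouring times COR15B gained 1.87 on the log2 scale at 1 h over 0.5 h (adjusted p = 1.11e-05). It fell by 0.81 between 1 and 3 h (adjusted p = 0.0106), a call lost without the first 1 h array (adjusted p = 0.125) or the second 3 h array (adjusted p = 0.223). The second rise, at 12 h over 6 h, was 0.92 (adjusted p = 0.00371), with an adjusted p of 0.0599 without the first 12 h array. COR15B then fell by 2.53 between 12 and 24 h (adjusted p = 4.78e-08).

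Set side by side, the neighbouring genes shared the 1 h peak and parted later: at 12 h the shoot change was -0.07 ± 0.28 for COR15A and 2.53 ± 0.25 for COR15B. The difference between the 2 genes was not tested. Over the 7 shoot means the log2 levels of COR15A and COR15B correlated at 0.61, a description over means that share their libraries. The genes are related in sequence, and cross-hybridisation between their probe sets was not tested.

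COR47 moved less in shoots and changed direction between times. Its shoot signals were 198 and 241 at 0.25 h, 298 and 249 at 0.5 h, 424 and 343 at 1 h, 139 and 175 at 3 h, 371 and 285 at 6 h, 163 and 190 at 12 h, and 162 and 187 at 24 h. Both arrays at 0.5, 1 and 6 h were above those at 0.25 h, and both at 3, 12 and 24 h were below. Changes at 0.5, 12 and 24 h were not called, so this lack of overlap did not set the called times apart. The mean was 383 ± 57.2 at 1 h, 157 ± 25.2 at 3 h and 328 ± 60.7 at 6 h, against 220 ± 30.4 at 0.25 h (SD, n = 2 each). COR47 rose by 0.78 ± 0.14 at 1 h (adjusted p = 1.62e-04), fell by 0.46 at 3 h (adjusted p = 0.00721) and rose by 0.55 ± 0.14 at 6 h (adjusted p = 0.00128). The 3 h call was lost without the second 0.25 h array (adjusted p = 0.107) or the first 3 h array (adjusted p = 0.139). The steps were larger: COR47 fell by 1.24 between 1 and 3 h (adjusted p = 1.85e-07), rose by 1.02 between 3 and 6 h (adjusted p = 5.32e-06) and fell by 0.85 between 6 and 12 h (adjusted p = 2.03e-05). At 12 and 24 h the differences from 0.25 h were -0.30 (adjusted p = 0.0778) and -0.31 (adjusted p = 0.0969).

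At 1 h in shoots all 3 genes were called higher, where 12.7% of the 14806 probe sets were called higher. At 6 h all 3 were again called higher, against 31.6% of probe sets. At 3 h COR15A and COR15B were higher, against 23.6%, and COR47 was lower, against 27.5%. At 12 h COR15B alone of the 3 was called higher, against 25.5%. None of the 3 was called at 0.5 h, where 14% of probe sets were called in either direction, or at 24 h, where 25.8% were. COR15A and COR15B passed the filter on low signals only through shoots, on 9 and 10 shoot arrays and 0 root arrays, so their counts are a description. Between neighbouring times in shoots, 21.6% of probe sets were called at 1 h against 0.5 h, 45.1% at 3 h against 1 h, 39.1% at 6 h against 3 h, 50.9% at 12 h against 6 h and 40.1% at 24 h against 12 h. The same shares in roots were 7.35%, 18.8%, 13.5%, 15% and 29.6%, in that order of steps.

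**Figure D2:**
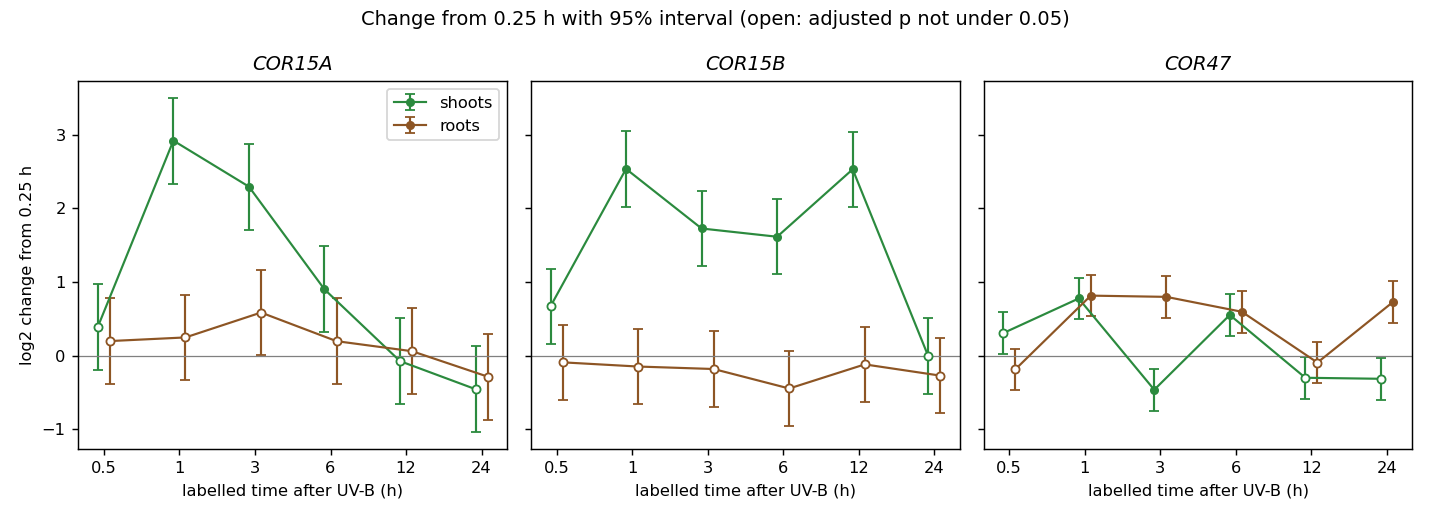
Log2 change from 0.25 h (log2 of signal + 9.58) for the 3 genes at each later time in shoots and roots, with 95% intervals from the limma fit. In shoots COR15A and COR15B stood near 2.92 and 2.54 at 1 h, and at 12 h only COR15B did, at 2.53. In roots the called changes were those of COR47 at 1, 3, 6 and 24 h.

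In roots COR15A and COR15B were dim throughout. COR15A root signals ran between 1.08 and 16.2 with a median of 6.21, and COR15B root signals between 5.67 and 16.3, all 28 values below the median of their array. No root change of either gene was called at any of the 6 later times, nor of COR47 at 0.5 or 12 h, when 9.74% and 21.3% of probe sets were called in either direction. COR15A lay between -0.28 and 0.59 and COR15B between -0.44 and -0.09 on the log2 scale. At these signals a small change would not be detectable.

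COR47 was bright in roots, and its root profile had a plateau at 1 to 6 h. Its root signals were 1177 and 1056 at 0.25 h, 1036 and 923 at 0.5 h, 2007 and 1931 at 1 h, 2012 and 1881 at 3 h, 1680 and 1700 at 6 h, 1105 and 986 at 12 h, and 1833 and 1874 at 24 h. The arrays at 1, 3, 6 and 24 h were all above those at 0.25, 0.5 and 12 h. The mean was 1969 ± 53.6 at 1 h and 1116 ± 85.5 at 0.25 h (SD, n = 2 each), a ratio of 1.76. COR47 rose in roots by 0.82 ± 0.14 at 1 h (adjusted p = 1.89e-04), 0.80 at 3 h (adjusted p = 1.71e-04), 0.60 at 6 h (adjusted p = 0.00422) and 0.73 at 24 h (adjusted p = 7.24e-04). Of all root probe sets, 6.29% were called higher at 1 h, 11.9% at 3 h, 7.88% at 6 h and 7.08% at 24 h. The 6 h call was lost without the second 0.25 h root array (adjusted p = 0.0580). At 12 h the difference was -0.09 (adjusted p = 0.684), and COR47 then rose by 0.82 between 12 and 24 h (adjusted p = 1.22e-04).

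The change from 0.25 h differed between shoots and roots for all 3 genes at some times, by the test of the shoot change minus the root change. For COR15A this difference was 2.67 ± 0.39 at 1 h (adjusted p = 9.09e-05) and 1.71 ± 0.39 at 3 h (adjusted p = 0.00193), and at 6 h it was 0.70, with an interval of -0.12 to 1.53. With no constant added to these dim root signals, neither COR15A difference passed the test, at 2.11 for 1 h (adjusted p = 0.212) and 0.81 for 3 h (adjusted p = 0.589). For COR15B it was 2.68 ± 0.35 at 1 h (adjusted p = 1.89e-05), 1.91 at 3 h (adjusted p = 2.06e-04), 2.06 at 6 h (adjusted p = 5.35e-05) and 2.65 at 12 h (adjusted p = 7.77e-06). COR15A and COR15B passed the filter only through their high shoot signals and were dim in roots, so these differences mostly restate the shoot changes. With no constant added, the COR15B differences stayed called, at 3.23, 2.41, 2.86 and 3.17 for the same 4 times. For COR47 at 1 h no tissue difference was called, at -0.04 ± 0.19 with an interval of -0.44 to 0.36. At 3 h its difference was -1.26 ± 0.19 (adjusted p = 2.64e-05) and at 24 h -1.04 ± 0.19 (adjusted p = 8.25e-04). Of all probe sets, 14.2% differed between tissues in this way at 1 h, 36.1% at 3 h, 48.7% at 6 h, 26.5% at 12 h and 12.4% at 24 h. At 0.5 h, when none of the 3 differences was called, the share was 6.12%.

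**Figure D3:**
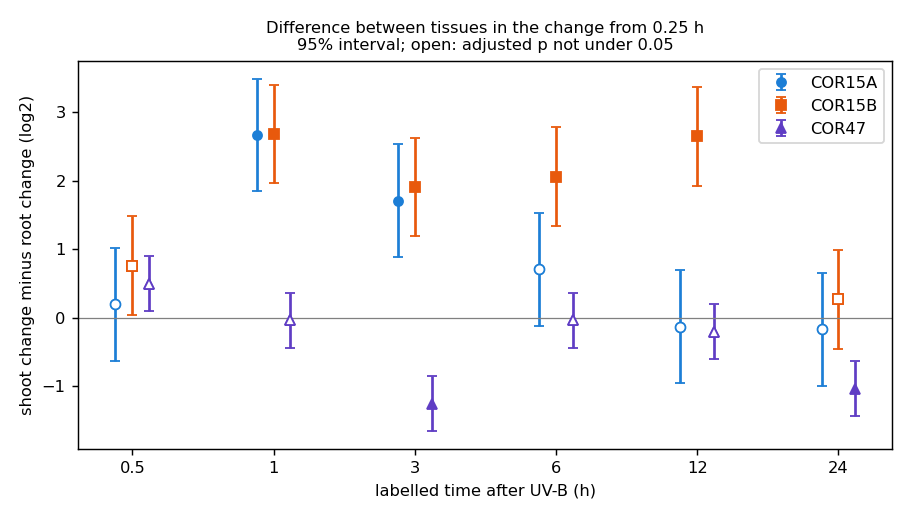
Shoot change minus root change from 0.25 h (log2 units) for the 3 genes at each later time, with 95% intervals. COR15A and COR15B were at 2.67 and 2.68 at 1 h, and COR47 was at -1.26 at 3 h and -1.04 at 24 h.

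As levels, COR15A was called higher in shoots than in roots at all 7 times, by 1.48 to 4.32 on the log2 scale. Its root signals lay mostly below the added constant, which sets the size of these differences: with no constant they ran between 3.05 and 5.61, all called. COR15A and COR15B passed the filter only through shoots, where they were higher, so their shoot against root tests are given as a description. COR15B did not pass the test at 0.25 h (0.40, adjusted p = 0.142) and was higher in shoots at the 6 later times, by 0.66 to 3.08. Its 24 h call (0.66, adjusted p = 0.0187) was lost with the median signal as the constant (0.30, adjusted p = 0.0912), without the second shoot array of 24 h (adjusted p = 0.0740) and without the first or the second root array of 24 h (adjusted p = 0.0721 and 0.0535). COR47 ran the other way and was lower in shoots at all 7 times, by 1.81 to 3.56 on the log2 scale, widest at 3 h. Of all probe sets, 27%, 26.5%, 27.9%, 28%, 30.4%, 25.6% and 27.7% were higher in shoots at 0.25, 0.5, 1, 3, 6, 12 and 24 h, and 51.3%, 52.8%, 52.1%, 48%, 43.2%, 50% and 48.7% were lower.

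Of 34 listed cold and dehydration targets, 4 besides the 3 genes could be named and measured. At 1 h in shoots 1 of the 4 was called higher and 0 lower, where 12.7% of all probe sets were higher and 14% lower, and the median change was 0.24 against -0.02 over all probe sets. The gene called was AT4G33980 (adjusted p = 0.0151), whose shoot means of 0.393 at 0.25 h and 5.58 at 1 h both lay below the added constant. The count of 1 became 0 with the median signal as the constant or a filter at the 75th percentile. At 6 h 3 were higher and 1 lower, where 31.6% of all probe sets were higher and 31.6% lower, with a median of 1.92 against -0.02. At 12 h 3 were higher and 1 lower, where 25.5% were higher and 20.2% lower, with a median of 1.4 against 0.03. The stricter filter left 1 higher at each of these times. That filter also removes dim members of a list, so a lower count under it need not mean a lost call. None of the 22 listed cold regulators, which include the CBF factors, none of the 14 listed genes of abscisic acid metabolism and none of the 28 of abscisic acid signalling could be named among the probe sets, so their levels were not analysed here.

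LTI30, a dehydrin like COR47, had a shoot signal of 90.7 ± 0.408 at 6 h and 14.9 ± 0.108 at 0.25 h (SD, n = 2 each), a log2 change of 2.04 ± 0.17 (adjusted p = 2.68e-09). It did not pass the test in shoots at 1 h (0.34, adjusted p = 0.157), and its 12 h change of 0.43 ± 0.17, counted above as higher, stood at the threshold. In roots LTI30 rose at 1 h, by 1.26 ± 0.17 (adjusted p = 2.42e-05), at 3 h, by 1.21, at 6 h, by 0.54 (adjusted p = 0.0374), and at 24 h, by 0.61, times at which COR47 also rose there. The LTI30 root calls at 6 and 24 h were lost with no constant added. Over the 7 root means LTI30 and COR47 correlated at 0.83, and over the 7 shoot means at 0.32, as a description. In shoots LTI30 was higher at 3 h, by 0.97 ± 0.17 (adjusted p = 9.31e-05), where COR47 was called lower. COR27, a cold-regulated gene that also feeds back on the circadian clock, had a shoot signal of 73.2 ± 2.3 at 12 h and 0.759 ± 0.183 at 0.25 h. Its log2 change at 12 h, the time of the second COR15B rise, was 3.00 ± 0.18 (adjusted p = 8.38e-12). The added constant sets the size of the COR27 changes. COR27 was already higher at 6 h in shoots, by 1.80. In roots it rose by 1.22 at 3 h, 2.54 at 6 h and 1.23 at 12 h, all called, where no COR15B change was called. COR27 and COR15B correlated at 0.50 over the 7 shoot means and -0.75 over the 7 root means, as a description. AT4G33980 had shoot signals of 40.8 ± 5.71 at 6 h and 42.2 ± 5.88 at 12 h, against 0.393 ± 0.0779 at 0.25 h, and rose by 2.33 ± 0.18 and 2.37 ± 0.18, sizes that the constant also sets. In roots AT4G33980 rose by 1.53 at 3 h, 2.48 at 6 h and 1.34 at 12 h, all called. STZ, a stress-related zinc finger repressor of transcription, went the other way: it fell by 2.99 at 6 h and by 4.72 at 12 h in shoots.

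Of 30 listed LEA and dehydrin genes, 19 were named and 5 passed the filter. The other 14 were above the array median on 0 arrays, with a highest signal of 21.5. At 1 h in shoots 2 of the 5 were higher and 0 lower, against the same 12.7% and 14% of all probe sets. These were AT2G23120, by 0.75 ± 0.09 (adjusted p = 1.54e-06), and AT2G44060, by 0.45 ± 0.11 (adjusted p = 0.00526). AT2G23120 was then lower than at 0.25 h at every later time in shoots, by -0.52 at 3 h, -0.68 at 6 h, -0.56 at 12 h and -0.82 at 24 h, all called. In roots AT4G38410 rose by 0.70 ± 0.20 at 1 h and by 1.17 ± 0.20 at 3 h. The shoot change of AT1G54410 at 1 h was -0.16 (adjusted p = 0.211). LTI30, described above, is the remaining gene of the 5 and is also on the list of cold targets.

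Of 26 listed clock genes, 4 were measured, 2 of which (COR27 and AT4G33980) are also on the list of cold targets. At 1 h in shoots 3 of the 4 were higher and 0 lower, against 12.7% and 14% of all probe sets. These were GI, AT5G52660, by 0.36 ± 0.13 (adjusted p = 0.0409), and AT4G33980, by 0.59 ± 0.18 (adjusted p = 0.0151). The AT4G33980 means at 0.25 and 1 h both lay below the added constant. With the filter at the 75th percentile, which also removes dim members, 1 was higher. GI, a clock protein that also controls flowering, had shoot means of 33.7 at 0.25 h, 225 at 1 h, 96.6 at 3 h and 223 at 6 h. Its log2 change in shoots was 2.44 ± 0.09 at 1 h (adjusted p = 3.74e-14). Of 4 measured genes often used as expression references, PEX4 was called higher at 1 h in shoots, by 0.44 ± 0.12 (adjusted p = 0.00983), and the other 3 were not called. GAPC2 was called lower in shoots at 3, 6 and 12 h, by -0.38, -0.59 and -0.30, and AT2G28390 higher at 6, 12 and 24 h, by 0.36, 0.45 and 0.30. The GAPDH control's 3′ to 5′ signal ratio moved over the shoot times, at 1.95 to 1.96 at 0.25 h, 1.91 to 1.96 at 1 h, 1.06 to 1.18 at 6 h and 1.24 to 1.47 at 12 h. The summed shoot markers were 20501 to 21769 at 0.25 h, 17816 to 23723 at 1 h and 12252 to 12430 at 12 h. Their part in the COR15A, COR15B and COR47 changes was not tested.

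**Figure D4:**
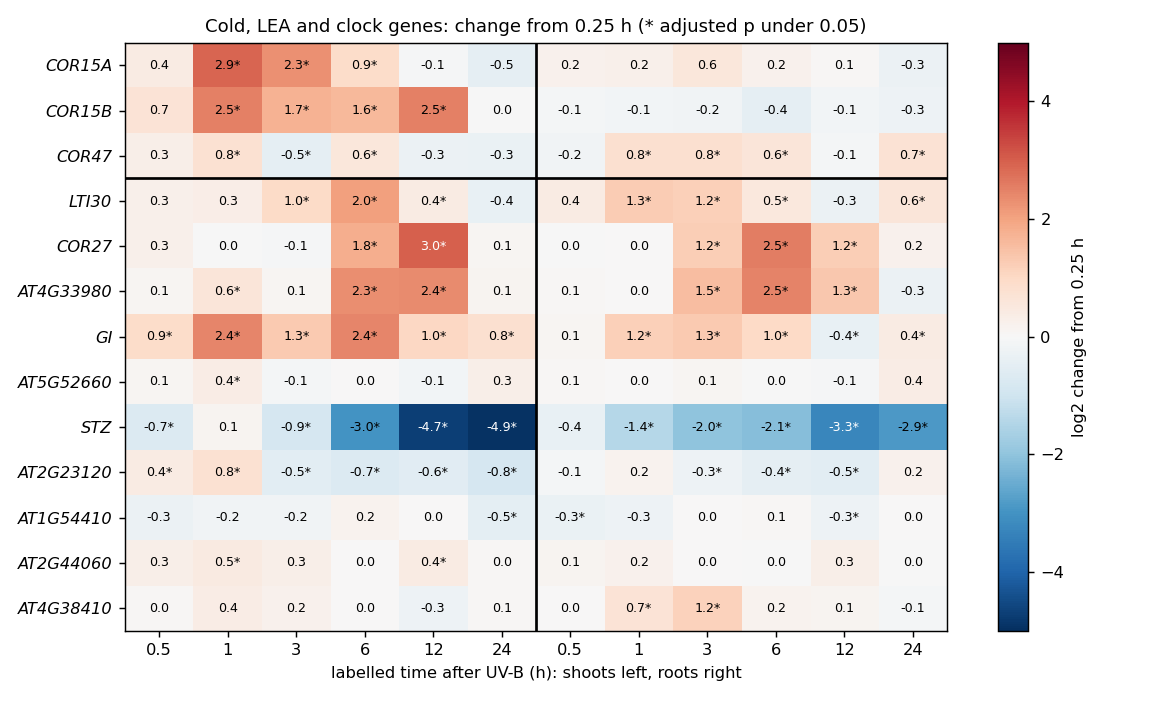
Log2 change from 0.25 h in shoots and roots (colour scale in log2 units) for the 3 genes and the measured members of the gene lists. COR15A was strongest at 1 h in shoots and COR15B at 1 and 12 h, whereas LTI30, COR27 and AT4G33980 were strongest at 6 or 12 h.

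The genes most like each of the 3 were ranked by Pearson correlation over 14 tissue-centred group means, among 2757 candidate genes whose shoot means ranged over at least 1 log2 unit. For COR15A the 5 highest were AT1G63830 at 0.93, PRA1.B4 at 0.91, and AT3G44400, AT4G00295 and AT1G77890 at 0.90 each. Being chosen for a curve that is high at 1 h in shoots, they are described only: AT1G63830 changed there by 1.79 ± 0.09 and AT3G44400 by 1.92 ± 0.15. COR15B had no match as close: AT5G62350 and AT4G33490 stood at 0.77, Fes1B and AT2G32380 at 0.75 and IQD23 at 0.74. AT5G62350 changed by 0.68 at 1 h and 0.88 at 12 h in shoots, smaller than COR15B at both times. For COR47 the highest was GI at 0.73, with 0.65 over the shoot means and 0.87 over the root means, followed by TET3 at 0.65, the gibberellin receptor GID1B at 0.59, and AT3G60520 and AT5G43260 at 0.58. The correlations are descriptions over means that share their libraries.

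**Figure D5:**
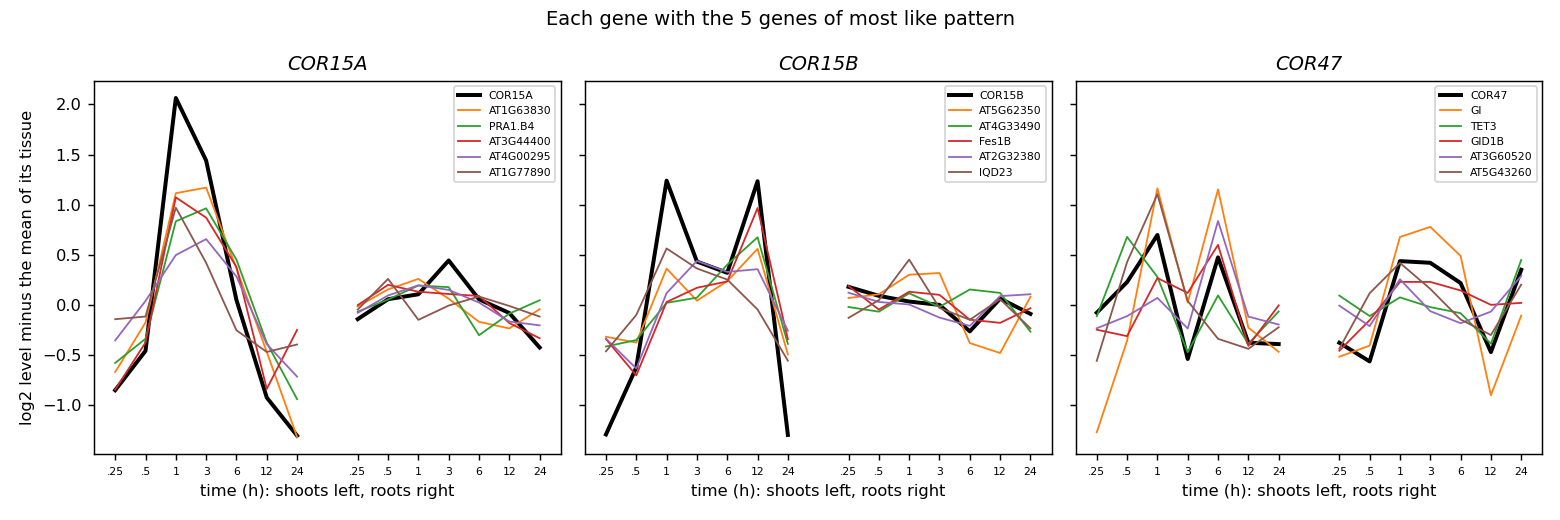
Tissue-centred log2 level against hours after UV-B in shoots and roots for each of the 3 genes and the 5 genes whose pattern correlated best with it. The 5 genes plotted with COR15A stood above their shoot mean at 1 and 3 h, and GI followed COR47 with a correlation of 0.73.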

How the data were processed

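RNA from shoots and roots was hybridised to 28 ATH1 arrays. The deposited values are linear signal intensities made with MAS5, per the submitters' processing notes; software settings beyond that are not given in the sources used here. After removal of 64 control probe sets, 22746 remained, of which 13513 matched 1 gene, 503 several and 8730 none in the platform annotation. Symbols were updated through the TAIR10.1 gene table for 13436.

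Signals were analysed as log2(signal + 9.58), the constant being the 25th percentile of all signals. A probe set was kept if 2 or more arrays read it above the array median (14806 kept, 7914 of them matching 1 gene). A model with 14 group means was fitted with limma (empirical Bayes, trended and robust, 14 residual degrees of freedom), and p-values were adjusted by Benjamini-Hochberg within each comparison over all kept probe sets. The script was tested on simulated data. Each time was compared with 0.25 h and with the previous time, the change was compared between tissues, and shoots were compared with roots. The number of arrays limits the precision.

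Named genes were the 3 genes, up to 6 kept members of each list by their F over time in shoots, and the 5 best correlated genes for each. Members and lists were chosen with earlier results of these data known. Alternatives covered the pseudocount, filter, scaling, variance model, separate fits by tissue, replicate block and leaving out each array. No sequences are shown.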

Additional observations from a re-analysis of the deposited data

Results flagged for a closer look

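The shoot and root changes from 0.25 h differed by the test of the difference itself at some times for each of the 3 genes. For COR15A the shoot change minus the root change was 2.67 at 1 h and 1.71 at 3 h, and neither was called with no pseudocount (2.11 and 0.81). For COR15B it was 2.68 at 1 h, 1.91 at 3 h, 2.06 at 6 h and 2.65 at 12 h. For COR47 it was -1.26 at 3 h and -1.04 at 24 h. COR15A and COR15B lay below the array median on every root array, passed the filter only through shoots and had no called root change, so their differences mostly restate the shoot change.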

How the results depend on the processing

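The 111 results for the 3 genes, recomputed under 11 other settings, gave 1182 values. Of these 1165 kept their side of the threshold (10 uncalled ones changed sign), 8 lost a call, 9 gained one and 0 reversed. With 1 array left out, 3085 of 3108 values did, 14 lost a call, 9 gained one and 0 reversed. The cause was not tested for any of the changes below. With no pseudocount, COR15A lost the shoot calls at 6 h against 0.25 h (1.1), 6 h against 3 h (-1.51) and 12 h against 6 h (-1.18) and the tissue differences at 1 h (2.11) and 3 h (0.81), COR15B lost 3 h against 1 h (-0.87), and the F over time of COR15A in roots passed (3.28). COR15A at 3 h against 1 h became a call with the median signal as pseudocount (-0.55), with quantile normalization between all arrays (-0.62) or within tissues (-0.65), and with the replicate block (-0.62). COR15B in shoots against roots at 0.25 h became a call with quantile normalization between all arrays (0.65) and the replicate block (0.56), and at 24 h lost it with the median pseudocount (0.30). COR47 in shoots at 12 h against 0.25 h became a call with quantile normalization between all arrays (-0.32) or within tissues (-0.34), and at 1 h against 0.5 h lost it when tissues were fitted separately (0.47). Deviations of same-numbered replicates correlated at -0.22 to 0.22 over 91 pairs of groups, over 0.1 in 6. Weak correlations cannot exclude pairing. The block changed no other call of the 3 genes.

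With each array left out in turn, COR15A ranged over 0.59 to 1.21 at 6 h against 0.25 h, -0.92 to -0.33 at 3 h against 1 h and -1.14 to -0.80 at 12 h against 6 h in shoots. COR15B ranged over 0.25 to 1.09 at 0.5 h against 0.25 h, -1.19 to -0.43 at 3 h against 1 h, 0.72 to 1.1 at 12 h against 6 h, 0.34 to 1.18 for the tissue difference at 0.5 h, and, in shoots against roots, -0.018 to 0.81 at 0.25 h and 0.63 to 0.70 at 24 h, where the call was lost 3 times. COR47 ranged in shoots over -0.62 to -0.31 at 3 h, -0.44 to -0.16 at 12 h and -0.45 to -0.18 at 24 h against 0.25 h, and 0.32 to 0.62 at 1 h against 0.5 h, and in roots over 0.52 to 0.67 at 6 h. Separate fits by tissue moved the number of calls in shoots at 0.5 h to 1183, against 2080, and in roots to 2221, against 1442, at 0.5 h, 3268, against 2123, at 24 h, and 3360, against 2215, at 12 h against 6 h. The filter at the 75th percentile gave fewer shoot against root calls, such as 7805, against 11847. Leaving out 1 array lowered the root calls to 1069, against 1863, at 1 h (second 1 h array), to 1849, against 3435, at 3 h (second 3 h array), to 1124, against 2336, at 6 h (second 6 h array) and to 1019, against 2123, at 24 h (second 24 h array), the shoot calls to 926, against 2080, at 0.5 h (first 0.5 h array) and 2460, against 3819, at 24 h (second 24 h array), and the tissue differences to 1341, against 2106, at 1 h (second 1 h root array). Leaving out 1 array also lowered root calls to 623, against 1442, at 0.5 h (second 0.5 h array) and 1634, against 3148, at 12 h (first 0.25 h array), the tissue differences to 386, against 906, at 0.5 h (second 0.5 h root array), and the steps in roots to 546, against 1088, at 1 h (second 1 h array), 1419, against 2787, at 3 h (second 1 h array), 810, against 2000, at 6 h (second 3 h array), 820, against 2215, at 12 h (second 6 h array) and 2561, against 4378, at 24 h (second 24 h array), and in shoots to 1902, against 3203, at 1 h (first 0.5 h array). Other arrays moved most of these counts by over 1.5 times too. Of 1152 recomputed counts of list members called, 91 changed by over 1.5 times.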
